A study of Mus musculus with 24 samples.

Results

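The genes described here are 10 components of the inflammasome and pyroptosis pathway, chosen by name: the sensors Nlrp3, Aim2, Nlrc4 and Nlrp1b, the NLRP3 cofactor Nek7, the adaptor Pycard, the proteases Casp1, Casp4 and Casp8, and the pore-forming substrate Gsdmd. All 10 were found among the 55291 gene names counted, and all 10 were among the 16258 genes that passed the filter on low counts and were tested. They were measured by mRNA sequencing in 24 libraries of cultured mouse pulmonary fibroblasts, from wild type (WT) C57BL/6 mice and from TLR4-/- mice on the same background, all aged 4 to 8 weeks. The cells of each genotype came from a pool of 3 to 4 lungs and were treated at passages 3 to 6, in reduced serum medium, for 24 h. The 4 treatments were PBS, 1 µg/ml recombinant mouse cold-inducible RNA-binding protein (rmCIRP), rmTGF-β1 (recombinant mouse transforming growth factor β1) at 2 ng/ml, and rmCIRP together with rmTGF-β1 at these doses, called both below. There were 3 libraries for each of the 8 conditions. The paper's legends give 3 samples per group with 3 repeats of each, and whether the samples were separate cultures is not given in the sources used here. Since the cells were pooled over lungs, the libraries are not separate animals. The p-values measure only the spread between these libraries, which may be technical and does not cover differences between pools or animals. The comparisons ask whether rmCIRP, a damage-associated molecular pattern recognized by TLR4, changes the pathway's mRNA, whether that needs TLR4, and whether rmTGF-β1 alters it.

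An inflammasome is a cytosolic complex in which a sensor gathers the adaptor ASC, the product of Pycard, and with it the protease caspase-1. Caspase-1 matures the cytokines IL-1β and IL-18 and cleaves gasdermin D, whose freed end forms pores in the plasma membrane and causes the lytic death called pyroptosis. The pathway is best known in macrophages, in which a Toll-like receptor signal prepares the cell by raising NLRP3 and pro-IL-1β, and a further signal assembles the complex. In the noncanonical branch of the pathway the protease encoded by Casp4, known in mice as caspase-11, senses cytosolic lipopolysaccharide and cleaves gasdermin D itself.

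Promoter sequences of the 5 genes that rmCIRP changed by at least 2-fold in WT cells, with or without a match, are shown because Toll-like receptor signalling acts on transcription through NF-κB, whose recognition sequence has the core GGGNNTTCC. The sequences are from RefSeq, assembly GRCm38.p6, each from 250 bases before to 50 bases after an annotated transcript start, and 9 of the 10 genes had at least 1 such window, 12 windows in all. Capitals mark matches to the core, read on either strand. The windows are chr11:59542436-59542735 and chr11:59541319-59541618 for the annotated starts of Nlrp3 and chr9:5308599-5308898 for Casp4, all on the plus strand. Those of Nlrp1b (chr11:71230684-71230983 and chr11:71201407-71201706, minus strand), Casp1 (chr9:5298267-5298566, plus strand) and Pycard (chr7:127993818-127994117, minus strand) hold no match.
Nlrp3, downstream start: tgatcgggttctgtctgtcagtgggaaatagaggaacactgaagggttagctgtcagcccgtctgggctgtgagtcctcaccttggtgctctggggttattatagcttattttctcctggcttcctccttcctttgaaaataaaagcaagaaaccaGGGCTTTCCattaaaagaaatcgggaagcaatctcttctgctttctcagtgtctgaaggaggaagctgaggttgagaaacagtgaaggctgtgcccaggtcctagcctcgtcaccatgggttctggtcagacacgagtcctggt
Nlrp3, upstream start: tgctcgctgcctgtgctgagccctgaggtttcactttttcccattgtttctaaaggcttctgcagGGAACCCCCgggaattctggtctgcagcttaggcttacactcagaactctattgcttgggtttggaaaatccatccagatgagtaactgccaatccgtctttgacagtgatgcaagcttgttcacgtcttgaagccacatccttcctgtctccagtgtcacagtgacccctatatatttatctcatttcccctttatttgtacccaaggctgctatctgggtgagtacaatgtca
Casp4: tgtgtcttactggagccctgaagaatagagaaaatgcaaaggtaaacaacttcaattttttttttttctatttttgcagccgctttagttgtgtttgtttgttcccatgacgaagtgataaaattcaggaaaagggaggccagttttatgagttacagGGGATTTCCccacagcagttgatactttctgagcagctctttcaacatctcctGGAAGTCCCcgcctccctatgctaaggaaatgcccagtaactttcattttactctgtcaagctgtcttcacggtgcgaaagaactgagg
Nlrp1b, upstream start: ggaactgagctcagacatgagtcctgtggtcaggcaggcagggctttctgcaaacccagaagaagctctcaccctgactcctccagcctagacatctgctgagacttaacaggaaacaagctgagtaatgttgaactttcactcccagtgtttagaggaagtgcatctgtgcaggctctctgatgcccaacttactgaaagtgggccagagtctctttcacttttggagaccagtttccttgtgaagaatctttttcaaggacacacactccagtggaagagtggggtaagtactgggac
Nlrp1b, downstream start: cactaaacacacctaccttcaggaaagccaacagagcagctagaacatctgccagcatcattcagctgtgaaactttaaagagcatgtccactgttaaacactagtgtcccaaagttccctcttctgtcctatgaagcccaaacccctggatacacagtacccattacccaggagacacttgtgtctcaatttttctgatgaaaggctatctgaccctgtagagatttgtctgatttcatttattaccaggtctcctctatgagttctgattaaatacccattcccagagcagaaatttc
Casp1: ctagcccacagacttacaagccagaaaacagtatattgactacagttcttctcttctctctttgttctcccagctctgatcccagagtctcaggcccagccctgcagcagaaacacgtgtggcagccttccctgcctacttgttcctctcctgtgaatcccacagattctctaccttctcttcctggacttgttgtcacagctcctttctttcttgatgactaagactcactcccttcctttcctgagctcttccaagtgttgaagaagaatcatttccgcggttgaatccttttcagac
Pycard: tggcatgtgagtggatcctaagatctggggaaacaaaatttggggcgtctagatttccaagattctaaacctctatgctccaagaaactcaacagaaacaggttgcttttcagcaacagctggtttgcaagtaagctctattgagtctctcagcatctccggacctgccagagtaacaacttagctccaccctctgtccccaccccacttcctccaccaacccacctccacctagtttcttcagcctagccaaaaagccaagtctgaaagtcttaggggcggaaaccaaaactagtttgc
Of the 9 genes, Nlrp3 and Casp4 held the core. Nlrp1b, which changed more than Casp4, did not, in either of its windows. Counting the transcript's first base as 0, the match GGGCTTTCC lay at -94 to -86 in the downstream Nlrp3 window, and GGAACCCCC, a match on the other strand, lay at -185 to -177 in the upstream one. The Casp4 window held GGGATTTCC at -92 to -84 and GGAAGTCCC at -39 to -31, and another annotated Casp4 start gave an overlapping window with the same matches. Among all genes with such windows 6.58% held the core. The ISRE core (GAAA, any 2 bases, GAAA), the GAS element TTCNNNGAA and the AP-1 element TGANTCA were in no window of the 9 genes and in 3.99%, 9.55% and 8.97% of all genes. A match describes the letters of the window and does not show that a factor binds there.

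Each library held between 29853346 and 39664606 reads assigned to genes. The labels were checked on Tlr4 itself. Its normalized counts, which are counts divided by a size factor for each library, were 718, 802 and 758 in WT libraries with PBS and 927, 892 and 891 in libraries labelled TLR4-/- with PBS. Tlr4 mRNA was thus not lower under the TLR4-/- label, and since counts are per gene and the altered part of the gene is not given, they do not show whether the product is lost. These libraries are called labelled TLR4-/- throughout. The third library labelled TLR4-/- with both stood apart from its replicates, with a chi-square per degree of freedom of 46.3 and 31.7 against the other libraries of its condition and 6.63 between those. The third library labelled TLR4-/- with rmTGF-β1 also stood apart, with 12 and 15.8 against its replicates and 3.61 between those. The raw count of Xist was 4403 to 6201 in labelled TLR4-/- libraries and at most 3 in WT libraries. Raw counts of the Y-linked Ddx3y ran from 1738 to 2716 in labelled TLR4-/- libraries and from 3476 to 5044 in WT libraries. The labelled TLR4-/- libraries thus held Xist together with Ddx3y, so their pool cannot be taken as female only. Since the genotypes differed in these sex-linked genes, genotype and the sex make-up of the pooled animals cannot be told apart.

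The labelled cell type was checked on marker lists. All 8 fibroblast markers were present, with summed normalized counts of 391672 to 567908 over all libraries, and all 14 macrophage markers were present too. Their sum was 75265 to 98963 in WT libraries and 333594 to 427950 in labelled TLR4-/- libraries. The defining macrophage markers were all well above 0: with PBS, Ptprc, the leukocyte antigen CD45, averaged 652 ± 54.2 normalized counts in WT and 3139 ± 63.7 in labelled TLR4-/- libraries (SD, n = 3). Csf1r, the macrophage growth factor receptor, averaged 3035 ± 222 and 13982 ± 416. In bulk RNA, fewer cells of a type and less RNA per cell cannot be told apart.

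With rmCIRP, WT cells had more mRNA of 3 of the 4 sensors, of all 3 proteases and of Gsdmd, and less of Nlrp1b, Pycard and Nek7. The largest change was that of Nlrp3, 8.33-fold higher than with PBS, while the adaptor that joins NLRP3 to caspase-1 fell 2.53-fold. All 10 genes passed the test at an adjusted p under 0.1, 7 higher and 3 lower, and in none did the 3 libraries with rmCIRP overlap the 3 with PBS. Over all genes tested, 43.9% passed in either direction, 19.8% higher and 24.1% lower. Overlap of libraries, here and below, was looked at only for the listed genes, so no share over all genes stands beside it.

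Nlrp3, which responds to ion flux and membrane damage, had normalized counts of 180, 242 and 255 with PBS and of 1865, 1807 and 1973 with rmCIRP. Every rmCIRP library lay far above every PBS library. The log2 fold change was 3.06 (SE 0.11, edgeR's quasi-likelihood test, Benjamini-Hochberg adjusted p = 2.28e-15). Aim2, the sensor of cytosolic DNA, had 52.9, 62.9 and 61.4 normalized counts with PBS and 87, 78.2 and 93.8 with rmCIRP. Nlrc4, which with NAIP proteins detects bacterial flagellin and secretion systems, had 70.3, 54.9 and 46.8 with PBS and 81.7, 104 and 93.8 with rmCIRP. Both rose modestly beside Nlrp3, without overlap, and the closest Nlrc4 libraries were 70.3 and 81.7. The log2 fold changes were 0.54 (SE 0.13) for Aim2 and 0.69 (SE 0.17) for Nlrc4 (edgeR's quasi-likelihood test, Benjamini-Hochberg adjusted p = 0.00177 and 0.00306).

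Nlrp1b, the remaining sensor, moved the other way. It had 20, 21 and 20 raw counts with PBS and 4, 4 and 3 with rmCIRP. The summed counts, 61 against 11, gave a depth-corrected ratio 5.41-fold lower with rmCIRP, with an exact 95% interval of 2.82 to 11.4 that covers counting error only. The fitted log2 fold change was -2.40 (SE 0.36, edgeR's quasi-likelihood test, Benjamini-Hochberg adjusted p = 1.40e-05). Its neighbour Nlrp1a is a close paralog, so reads that fit both may have been left uncounted or assigned to the wrong one. Nlrp1a fell as well, from 28.9, 31.9 and 27.1 to 6.37, 11.3 and 10.9 normalized counts. Beside rmTGF-β1 it did not pass, and its counts of 22.2, 18 and 22.8 without rmCIRP overlapped those of 23.5, 12.8 and 25.5 with it (log2 fold change -0.03).

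Pycard was low and fell further. Its normalized counts were 49.1, 49.9 and 59.3 with PBS and 17, 23.7 and 21.7 with rmCIRP, so the highest treated library held less than the lowest control. The log2 fold change was -1.34 (SE 0.22, edgeR's quasi-likelihood test, Benjamini-Hochberg adjusted p = 3.79e-05). Nek7, a kinase that bridges NLRP3 subunits, was abundant and fell slightly, from 4290, 4047 and 4216 to 3476, 3416 and 3274 normalized counts. The sets did not overlap, and the log2 fold change was -0.31 (SE 0.05, edgeR's quasi-likelihood test, Benjamini-Hochberg adjusted p = 5.40e-05). Exons of Pycard and of Nek7 overlap those of genes on the other strand, Gm45205 and Gm28501, and the strand setting of the counting is not given in the sources used here, so reads of the pairs may not be told apart.

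Among the proteases, both inflammatory caspases rose by similar amounts. Casp1 had 152, 118 and 135 normalized counts with PBS and 336, 389 and 448 with rmCIRP. Casp4 had 160, 238 and 233 with PBS and 641, 588 and 762 with rmCIRP. For each, all treated libraries lay at least 2-fold above the controls. The log2 fold changes were 1.53 (SE 0.14) for Casp1 and 1.66 (SE 0.13) for Casp4 (edgeR's quasi-likelihood test, Benjamini-Hochberg adjusted p = 7.27e-09 and 4.77e-10). Gsdmd, their shared substrate, rose from 775, 728 and 822 to 1203, 1136 and 1249 normalized counts, again with a gap between the sets. Its log2 fold change was 0.62 (SE 0.06, edgeR's quasi-likelihood test, Benjamini-Hochberg adjusted p = 1.53e-08).

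Casp8, the initiator of extrinsic apoptosis and a brake on necroptosis, showed the smallest of the 10 changes. It had 1498, 1561 and 1488 normalized counts with PBS and 1653, 1581 and 1708 with rmCIRP. The sets were separated by a narrow gap, and the log2 fold change was 0.11 (SE 0.04, edgeR's quasi-likelihood test, Benjamini-Hochberg adjusted p = 0.029). The call was lost without WT PBS replicate 3 (log2 fold change 0.10, adjusted p = 0.106, where the 6 fits that left out 1 library gave 0.012 to 0.106 with edgeR), and without the filter on low counts.

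The macrophage markers also moved with rmCIRP in WT cells. Their summed normalized count was 96303 ± 4598 with PBS and 79511 ± 2495 with rmCIRP (SD, n = 3), with 4 of the 14 markers higher and 10 lower by the same test. Their log2 fold changes ran from -0.71 to 2.26 with a median of -0.34, and 1 of the 14 was at least 2-fold higher. Nlrp3 lay above that range, Pycard and Nlrp1b lay below it, and the other 7 genes lay within it. Its upper end rests on the 1 marker that was at least 2-fold higher, and Casp1 (1.53) and Casp4 (1.66) lay above all the other markers. Of the 8 fibroblast markers 2 were higher and 5 lower, and their sum was 519617 ± 21023 with PBS and 412230 ± 22323 with rmCIRP (SD, n = 3). Both neutrophil markers tested rose, by 1.04 and 2.41. Both epithelial markers tested were lower, with log2 fold changes of -2.65 and -1.24, and 2 of 4 endothelial markers fell. The part of these cells in the changes was not tested.

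**Figure D1:**
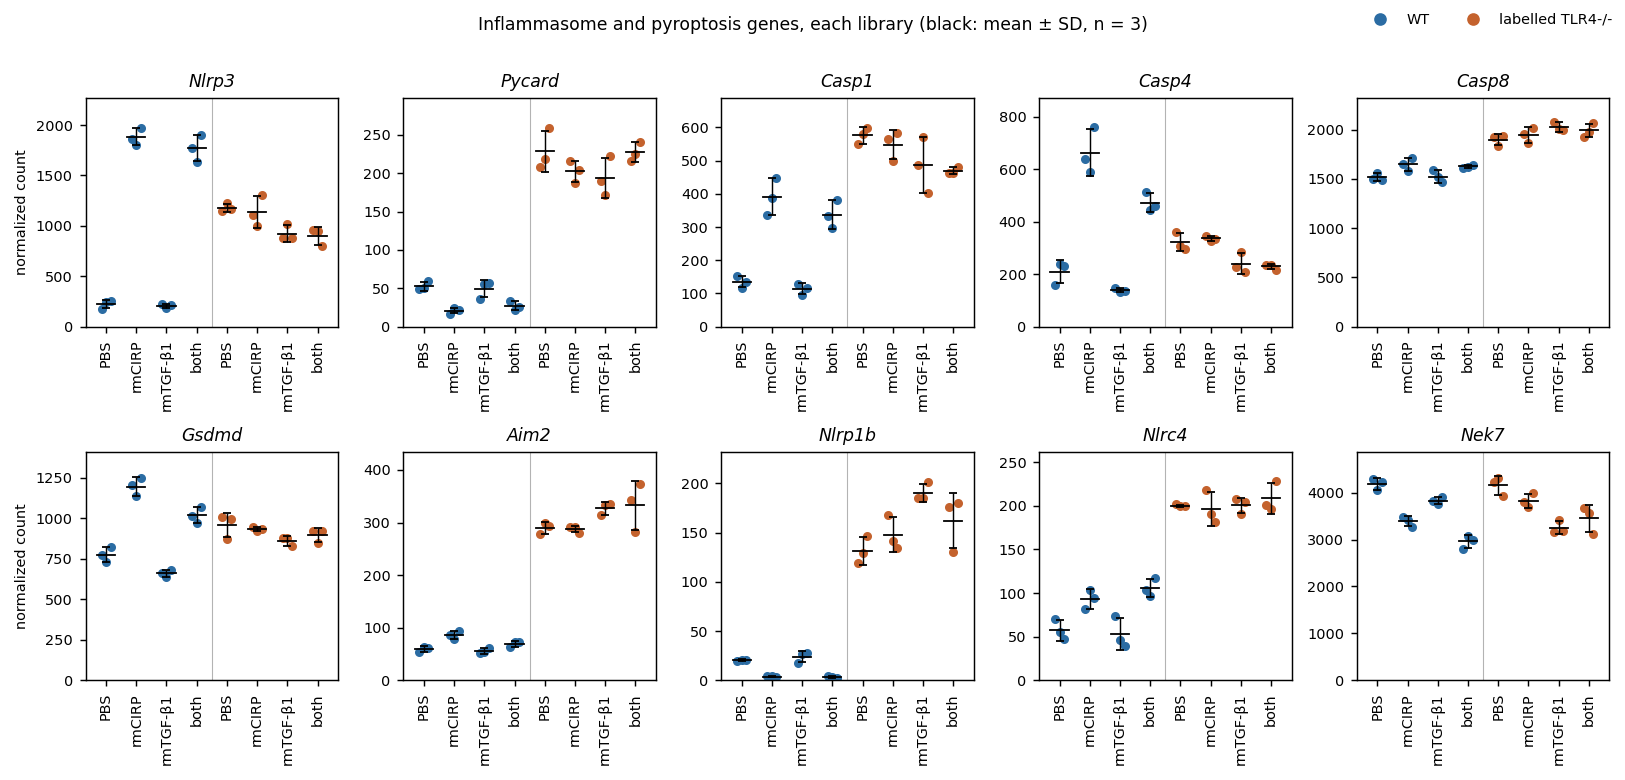
Normalized counts of the 10 genes in each of the 24 libraries (y axis from 0, scale set per gene), by treatment (x axis; both is rmCIRP with rmTGF-β1) for WT (blue) and labelled TLR4-/- cells (orange), with the mean and SD of 3 libraries in black. Nlrp3 in WT libraries goes from 180 to 255 with PBS to 1807 to 1973 with rmCIRP, while labelled TLR4-/- libraries stay between 799 and 1305 under all treatments.

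Beside rmTGF-β1, the profibrotic cytokine that drives fibroblasts to make matrix, rmCIRP moved WT cells in nearly the same way. Comparing both with rmTGF-β1 alone, 10 of 10 genes passed, 7 higher (Nlrp3, Aim2, Nlrc4, Casp1, Casp4, Casp8 and Gsdmd) and 3 lower (Nlrp1b, Pycard and Nek7). Over all genes tested, 42.2% passed, 20.5% higher and 21.7% lower. Neither set of libraries is shared with the comparison of rmCIRP with PBS.

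Nlrp3 had 222, 183 and 218 normalized counts with rmTGF-β1 and 1775, 1638 and 1897 with both. The libraries were as far apart as without rmTGF-β1, and the log2 fold change was 3.08 (SE 0.11, edgeR's quasi-likelihood test, Benjamini-Hochberg adjusted p = 2.33e-15). Casp1 went from 129, 96 and 117 to 333, 297 and 382 normalized counts. Casp4 went from 147, 134 and 134 to 514, 443 and 461. Both caspases rose without overlap, by 1.56 (SE 0.14) and 1.77 (SE 0.13) on the log2 scale (edgeR's quasi-likelihood test, Benjamini-Hochberg adjusted p = 1.18e-08 and 6.36e-10). Gsdmd went from 663, 637 and 680 to 1012, 971 and 1070, a log2 fold change of 0.62 (SE 0.06).

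Nlrc4 had 73.6, 46 and 39.7 normalized counts with rmTGF-β1 and 104, 96.3 and 117 with both, again without overlap, and its log2 fold change was 1.01 (SE 0.17). Pycard went from 36.3, 55 and 56.6 to 33.6, 22.1 and 25.5. Its closest libraries nearly touched, at 36.3 and 33.6, and its log2 fold change was -0.87 (SE 0.21, edgeR's quasi-likelihood test, Benjamini-Hochberg adjusted p = 0.00227). The raw counts of Nlrp1b were 17, 27 and 33 without rmCIRP but 4, 3 and 2 with it. The sums of 77 and 9 gave a ratio 7.40-fold lower with both, with an exact 95% counting interval of 3.70 to 16.8. Nek7 went from 3818, 3752 and 3912 to 2807, 3073 and 2998 normalized counts, a log2 fold change of -0.38 (SE 0.05).

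The calls of Aim2 and Casp8 were near the threshold. Aim2 had 51.4, 54 and 61.7 normalized counts with rmTGF-β1 and 63.2, 73.1 and 73.1 with both, and its log2 fold change was 0.31 (SE 0.13, edgeR's quasi-likelihood test, Benjamini-Hochberg adjusted p = 0.0983). Casp8 went from 1589, 1520 and 1464 to 1615, 1623 and 1642, and its log2 fold change was 0.09 (SE 0.04, same test, Benjamini-Hochberg adjusted p = 0.0906). In both genes the sets came close without overlapping. The Casp8 call was lost in 5 of the 6 fits that left out 1 library, all but the one without WT rmTGF-β1 replicate 1, with log2 fold changes of 0.06 to 0.12. The Aim2 call was lost without WT rmTGF-β1 replicate 1 or 2 and without WT both replicate 2 or 3, with values of 0.25 to 0.39 over the 6 fits. DESeq2 called neither of these.

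The difference between the rmCIRP responses with and without rmTGF-β1 was tested directly in WT cells. It passed for 0 of the 10 genes by edgeR's quasi-likelihood test, beside 0.0492% of all genes tested. An unadjusted p under 0.05 was found for 0 of the 10, beside 5.64% of all genes tested, and DESeq2 called 0. The difference for Nlrp3 was 0.03 on the log2 scale, with a 95% interval of -0.31 to 0.36. For Pycard it was 0.47, with an interval of -0.17 to 1.11, and for Nlrp1b -0.44, with an interval of -1.70 to 0.81, so that sizeable differences for these low genes were not detectable at this depth.

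Given alone, rmTGF-β1 moved few of the genes in WT cells. Casp4 and Gsdmd fell, 0 of the 10 rose, beside 12.4% of all genes tested that passed in either direction, 5.77% higher and 6.65% lower. Casp4 went from 160, 238 and 233 normalized counts with PBS to 147, 134 and 134 with rmTGF-β1, a small gap from the lowest control. The log2 fold change was -0.60 (SE 0.15, edgeR's quasi-likelihood test, Benjamini-Hochberg adjusted p = 0.0113). Gsdmd went from 775, 728 and 822 to 663, 637 and 680, also without overlap, a log2 fold change of -0.23 (SE 0.06, edgeR's quasi-likelihood test, Benjamini-Hochberg adjusted p = 0.0166). Of the other 8 genes, Nek7 had a log2 fold change of -0.13 without overlap (95% interval -0.24 to -0.03, edgeR's quasi-likelihood test, Benjamini-Hochberg adjusted p = 0.12), and 7 overlapped the controls. The interval for Nlrp3 was -0.40 to 0.16.

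In libraries labelled TLR4-/-, rmCIRP moved 0 of the 10 genes. Nlrp3 had 1147, 1224 and 1171 normalized counts with PBS and 1109, 994 and 1305 with rmCIRP, so that the treated libraries lay on both sides of the controls. Its log2 fold change was -0.05, with a 95% interval of -0.25 to 0.15. Pycard had 208, 218 and 259 normalized counts with PBS and 215, 187 and 204 with rmCIRP, and the sets overlapped. The log2 fold changes of the 10 genes ran from -0.17 (Pycard) to 0.18 (Nlrp1b), and the libraries overlapped for all 10. The lowest value of edgeR's quasi-likelihood test, Benjamini-Hochberg adjusted p = 0.67, belonged to Nek7, which was also the 1 gene with an unadjusted p under 0.05, and DESeq2 called 0 of the 10. Of all genes tested, 0% passed and 6.99% had an unadjusted p under 0.05.

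The same held beside rmTGF-β1. Comparing both with rmTGF-β1 alone in labelled TLR4-/- libraries, 0 of the 10 genes passed by edgeR's quasi-likelihood test, beside 2.69% of all genes tested. An unadjusted p under 0.05 was found for 0 of the 10, beside 17.9% of all genes tested, and DESeq2 called 0. Nlrp3 had 876, 1017 and 876 normalized counts with rmTGF-β1 and 958, 950 and 799 with both. Casp1 had 486, 571 and 403 without rmCIRP against 464, 463 and 481 with it. The sets overlapped for 9 of the 10 genes, the exception being Nlrp1b, with 185, 185 and 201 against 176, 130 and 180 normalized counts and a log2 fold change of -0.24 (95% interval -0.49 to 0.00). This comparison holds both libraries that stood apart, and the count was 0 without either and without both. Over all genes it turned on single libraries: the 437 genes that passed became 1 without labelled TLR4-/- both replicate 3, 2141 without labelled TLR4-/- rmTGF-β1 replicate 3 and 652 without both of these. Without the other libraries it was 0 and 79 (rmTGF-β1 replicates 1 and 2) and 2674 and 738 (both replicates 1 and 2).

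**Figure D2:**
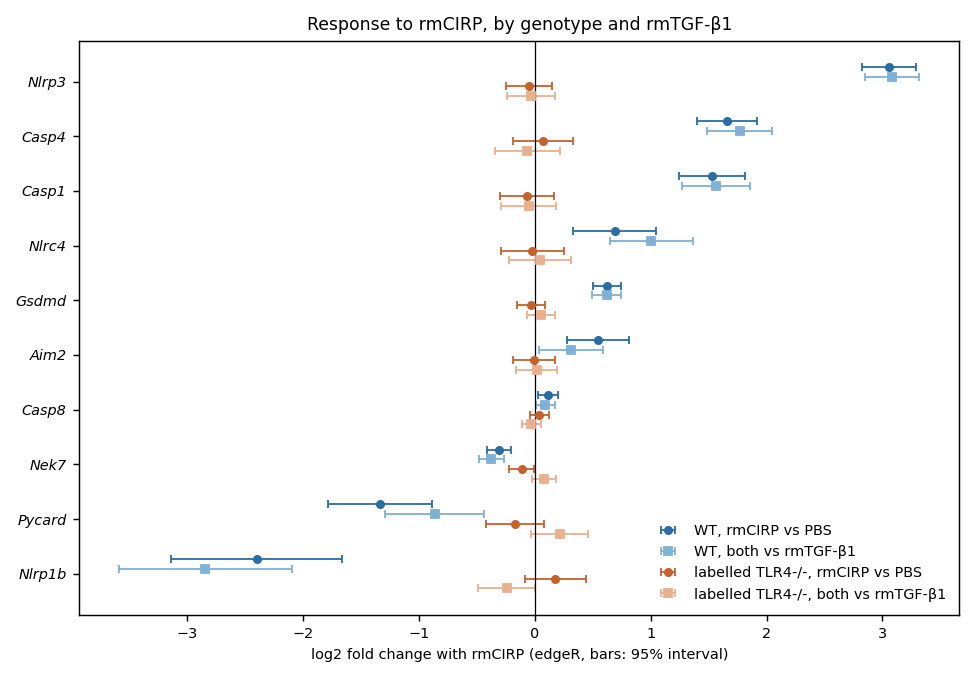
Log2 fold change with rmCIRP (x axis) for each gene (y axis), against PBS (circles) and against rmTGF-β1 (squares), in WT (blue) and labelled TLR4-/- cells (orange), with 95% intervals as bars. WT values run from -2.84 for Nlrp1b to 3.08 for Nlrp3, and labelled TLR4-/- values lie between -0.24 and 0.22.

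The genotypes differed in their response to rmCIRP for 9 of the 10 genes, when the difference itself was tested. Over all genes tested, 31.4% passed, 17.1% higher and 14.3% lower. For Nlrp3, Casp1, Casp4, Gsdmd, Aim2 and Nlrc4 the response was lower in labelled TLR4-/- libraries, and for Pycard, Nlrp1b and Nek7 it was higher. The difference, labelled TLR4-/- minus WT, was -3.11 (SE 0.15) on the log2 scale for Nlrp3, -1.59 (SE 0.18) for both Casp1 and Casp4, and -0.65 (SE 0.08) for Gsdmd. It was 1.17 (SE 0.25) for Pycard and 2.58 (SE 0.38) for Nlrp1b. These 6 differences had Benjamini-Hochberg adjusted p-values of 0.00136 or less by edgeR's quasi-likelihood test. Those of Aim2, -0.55 (SE 0.15), and Nlrc4, -0.71 (SE 0.22), passed with adjusted p = 0.0116 and 0.0192 by the same test.

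Nek7 and Casp8 were the least certain. The difference for Nek7 was 0.20 (SE 0.07, edgeR's quasi-likelihood test, Benjamini-Hochberg adjusted p = 0.0531). It no longer passed without WT PBS replicate 1, WT rmCIRP replicate 3, labelled TLR4-/- PBS replicate 3 or labelled TLR4-/- rmCIRP replicate 1 or 3, with values of 0.16, 0.15, 0.14, 0.18 and 0.17. For Casp8 it was -0.08, with a 95% interval of -0.19 to 0.04, and did not pass (edgeR's quasi-likelihood test, Benjamini-Hochberg adjusted p = 0.358). Of the 14 macrophage markers, 7 passed as higher and 4 as lower in this comparison, with differences from -2.22 to 0.70.

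In labelled TLR4-/- cells rmTGF-β1 alone moved 6 of the 10 genes, by small amounts, and 3 of these without the rmTGF-β1 library that stood apart. Nlrp3, Nek7, Casp4 and Gsdmd fell and Nlrp1b and Casp8 rose, and 23.9% of all genes tested passed, 12.1% higher and 11.7% lower. Nlrp3 went from 1147, 1224 and 1171 normalized counts to 876, 1017 and 876, all below the controls. Its log2 fold change was -0.35 (SE 0.10, edgeR's quasi-likelihood test, Benjamini-Hochberg adjusted p = 0.0153). Nek7 went from 4228, 4306 and 3923 to 3166, 3425 and 3174, likewise separate, and also by -0.35 (SE 0.05, edgeR's quasi-likelihood test, Benjamini-Hochberg adjusted p = 5.76e-05). Nlrp1b went from 119, 129 and 146 to 185, 185 and 201 normalized counts, all above the controls, by 0.54 (SE 0.12, edgeR's quasi-likelihood test, Benjamini-Hochberg adjusted p = 0.00362).

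The other 3 calls were fragile. Casp4 had 361, 308 and 298 normalized counts with PBS and 228, 286 and 207 with rmTGF-β1 and a log2 fold change of -0.42. Gsdmd had 1006, 873 and 993 with PBS and 880, 877 and 827 with rmTGF-β1, which overlapped, and a log2 fold change of -0.15. Casp8 had 1925, 1838 and 1937 with PBS and 2080, 2003 and 1992 with rmTGF-β1, and a log2 fold change of 0.10. Without labelled TLR4-/- PBS replicate 1 or labelled TLR4-/- rmTGF-β1 replicate 3, all 3 were lost and the count of genes was 3. The latter is the library that stood apart, and when it was left out together with the one labelled TLR4-/- with both, an alternative added after seeing the data, 5 genes passed, Casp4 and Gsdmd being lost and Pycard gained with -0.33. The call of Casp8 was lost in each of the 6 fits that left out 1 library, that of Gsdmd in all but the one without labelled TLR4-/- PBS replicate 2. Casp1, with a log2 fold change of -0.24, passed when labelled TLR4-/- rmTGF-β1 replicate 2 was left out, with -0.37. Whether the response to rmTGF-β1 differed between genotypes was tested directly. By edgeR's quasi-likelihood test 0 of the 10 genes passed, beside 0.0861% of all genes tested. An unadjusted p under 0.05 was found for 1, Nek7, beside 10.4% of all genes tested, and DESeq2 called 0.

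With PBS, 9 of the 10 genes were higher in labelled TLR4-/- than in WT libraries, beside 47.1% of all genes tested that passed, 23.2% higher and 24% lower. The largest differences were those of the sensors and of the adaptor and Casp1, between 3.47-fold and 6.42-fold. Nlrp1b had 19.2, 21 and 20.8 normalized counts in WT and 119, 129 and 146 in labelled TLR4-/- libraries. Aim2 had 52.9, 62.9 and 61.4 against 278, 299 and 294. Pycard had 49.1, 49.9 and 59.3 against 208, 218 and 259. None of these sets came near the other, and the log2 fold changes were 2.68 (SE 0.18), 2.29 (SE 0.11) and 2.11 (SE 0.15).

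The level of Nlrp3 without rmCIRP in labelled TLR4-/- libraries, 1181 ± 39.4 normalized counts with PBS, lay between those of WT libraries with PBS, 226 ± 40.0, and with rmCIRP, 1882 ± 84.2 (SD, n = 3). The log2 fold change between genotypes with PBS was 2.39 (SE 0.11, edgeR's quasi-likelihood test, Benjamini-Hochberg adjusted p = 6.47e-14). Casp1 had 549, 581 and 598 normalized counts in labelled TLR4-/- libraries, which also lay above the 336, 389 and 448 of WT libraries with rmCIRP. Its log2 fold change with PBS was 2.09 (SE 0.13), and that of Nlrc4 was 1.79 (SE 0.16). Casp4 differed less, with 160, 238 and 233 in WT and 361, 308 and 298 in labelled TLR4-/- libraries, and its log2 fold change was 0.62 (SE 0.13). Casp8 and Gsdmd differed by 0.32 (SE 0.04) and 0.30 (SE 0.06). Each of the 9 genes passed with a Benjamini-Hochberg adjusted p of 0.000652 or less by edgeR's quasi-likelihood test. Nek7 had 4290, 4047 and 4216 against 4228, 4306 and 3923, sets that overlapped, with a log2 fold change of -0.01 (95% interval -0.12 to 0.09).

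Macrophage markers moved with this comparison too. All 14 were higher in labelled TLR4-/- libraries with PBS, with log2 fold changes from 1.49 to 2.81 and a median of 2.19. The values of Nlrp3, Aim2, Nlrc4, Nlrp1b, Pycard and Casp1 lay within that range, and those of Casp4, Casp8, Gsdmd and Nek7 lay below it. Markers of other cell types also differed. Of the epithelial markers, Cdh1 and Krt18 could be tested and were 1.63 and 1.89 higher on the log2 scale, and the summed count of the 4 listed was 16.2 to 81.8 over all WT libraries and 182 to 247 over all labelled TLR4-/- libraries. Of the 4 endothelial markers, 3 were lower, at -2.04 to -1.72, with summed counts of 526 to 913 in WT and 246 to 764 in labelled TLR4-/- libraries. The 764 was that of the third library with both, which stood apart, and the next highest labelled TLR4-/- sum was 399. Csf3r, 1 of 2 neutrophil markers tested, was 2.50 higher. Among 8 fibroblast markers, 3 passed as lower, including Pdgfra and Thy1 (-1.19 and -1.16), 1 passed as higher and 4 did not pass. The median over the 8 was -0.11 on the log2 scale, and the highest value was 0.25. No T or B cell marker passed the filter on low counts. The part of RNA from these cells in the genotype difference was not tested.

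**Figure D3:**
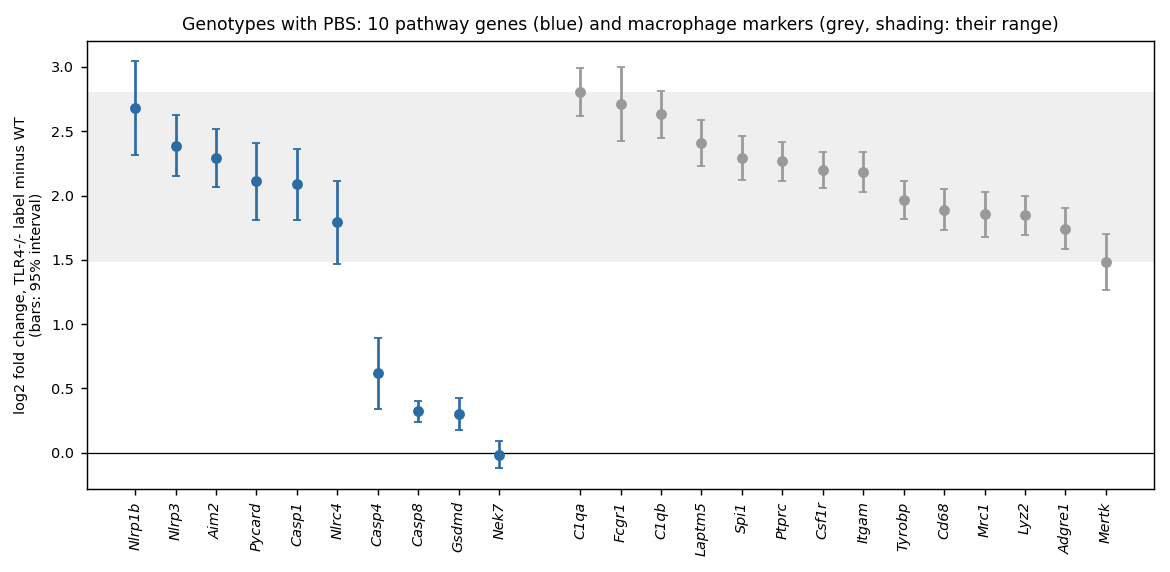
Log2 fold change of labelled TLR4-/- over WT libraries with PBS (y axis, bars are 95% intervals) for the 10 genes (blue) and the 14 macrophage markers (grey, shading from 1.49 to 2.81). Nlrp1b, Nlrp3, Aim2, Pycard, Casp1 and Nlrc4 sit within the shading, and Casp4, Casp8, Gsdmd and Nek7 sit below it.

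Levels were compared between genes as normalized counts per kilobase of exon. In WT libraries with PBS, Nek7 led with 567 per kilobase, followed by Casp8 with 524, Gsdmd with 326 and Casp1 with 90.2. Casp4 and Nlrp3, with 56.7 and 55.6 per kilobase, did not differ beyond their spread. Aim2 with 16.9, Pycard with 13.9 and Nlrc4 with 11.9 overlapped their neighbours in the order, and Nlrp1b was last with 3.23. With rmCIRP, Nlrp3 reached 464 per kilobase, within the spread of Gsdmd with 503 and Nek7 with 459, while Pycard had 5.47 and Nlrp1b 0.599.

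In labelled TLR4-/- libraries with PBS the order ran from Casp8, 657 per kilobase, through Nek7, 563, to Gsdmd, 403, and Casp1, 385, which overlapped. Nlrp3 followed with 291, Casp4 with 86.8 and Aim2 with 82.8, the last pair overlapping. Pycard with 60.1, Nlrc4 with 41.7 and Nlrp1b with 20.8 per kilobase each stood apart from its neighbours. The lengths are of all annotated exons of a gene joined together, so a gene with a long minor transcript is set too low.

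**Figure D4:**
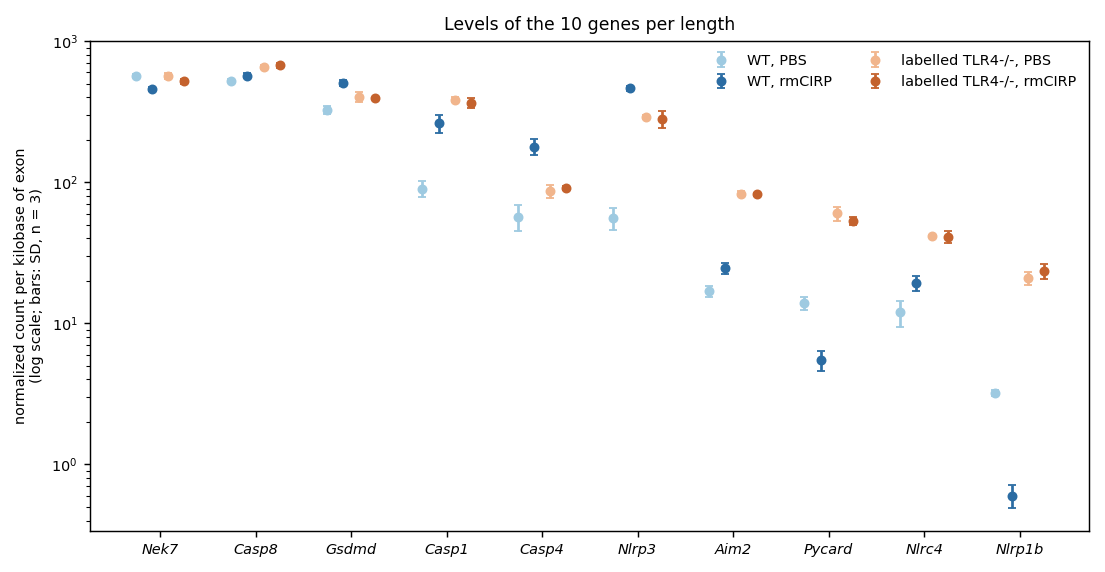
Mean normalized count per kilobase of exon (y axis, log scale, bars are SD of 3 libraries) for the 10 genes with PBS (pale) and rmCIRP (dark), in WT (blue) and labelled TLR4-/- cells (orange). In WT cells Nlrp3 goes from 55.6 to 464 and Pycard from 13.9 to 5.47, while pale and dark orange points lie close together.

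Of 30 further genes of the pathway, upstream regulators, partner proteins and products, 27 could be tested. In WT cells rmCIRP raised 12 of these and lowered 4, beside 19.8% higher and 24.1% lower of all genes tested, with a median log2 fold change of 0.07 beside -0.02 over all genes. Il1b, the substrate cytokine of caspase-1, went from 15.4, 14 and 21.9 normalized counts to 15923, 15495 and 16810. Il18, the other substrate cytokine, went from 20.2, 19 and 26 to 60.5, 71 and 96.8. Both rose without overlap, by 9.87 (SE 0.16) and 1.81 (SE 0.20) on the log2 scale. The interferon-inducible GTPases Gbp5 and Gbp2, which act on bacterial membranes to expose lipopolysaccharide, rose by 6.82 (SE 0.25) and 3.26 (SE 0.18). Zbp1, a sensor of Z-form nucleic acids that can start necroptosis and pyroptosis, went from 105, 150 and 98.9 to 3222, 2402 and 3647 normalized counts. It rose by 4.71 (SE 0.32), and Nlrp1a fell by 1.61 (SE 0.26) on the log2 scale. These 6 genes had Benjamini-Hochberg adjusted p-values of 4.71e-05 or less by edgeR's quasi-likelihood test.

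Beside rmTGF-β1, rmCIRP raised 14 of the 27 genes in WT cells and lowered 3, beside 20.5% and 21.7% of all genes tested, with a median of 0.27 beside -0.01 over all genes. Il1b, Gbp5, Zbp1, Gbp2 and Il18 rose by 9.85, 7.27, 4.66, 3.00 and 1.33 on the log2 scale. Mlkl, the pore-forming effector of necroptosis, rose by 1.06 (SE 0.09), as it had with rmCIRP alone, by 1.11 (SE 0.08). In labelled TLR4-/- libraries 0 of the 27 passed with rmCIRP, against PBS or beside rmTGF-β1, by edgeR's quasi-likelihood test. Of all genes tested, 0% and 2.69% passed in these 2 comparisons. For example, Il1b had 74.1, 79.5 and 64.7 normalized counts with PBS and 50.1, 57.5 and 60.9 with rmCIRP, which did not overlap, and Zbp1 had 368, 122 and 161 against 145, 341 and 164. The rmCIRP responses of the genotypes differed for 16 of the 27, 4 higher and 12 lower in labelled TLR4-/- libraries, beside 17.1% and 14.3% of all genes tested, and the median difference was -0.11 beside 0.03 over all genes.

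With rmTGF-β1 alone, 0 of the 27 rose and 3 fell in WT libraries, beside 5.77% and 6.65% of all genes tested. Of the same genes 3 rose and 6 fell in labelled TLR4-/- libraries, beside 12.1% and 11.7%. Each of these log2 fold changes was under 1 in size. The genotypes with PBS differed for 19 of the 27, 15 higher and 4 lower in labelled TLR4-/- libraries, beside 23.2% and 24% of all genes tested, with a median of 0.23 beside -0.02 over all genes. The NAIP genes, whose products bind bacterial ligands for NLRC4, were among the highest: Naip5 by 2.18 (SE 0.15), Naip2 by 1.91 (SE 0.13), Naip6 by 1.91 (SE 0.16) and Naip1 by 1.39 (SE 0.36) on the log2 scale. They are related neighbouring genes, so reads that fit more than 1 of them may have been left uncounted or assigned to the wrong one. Il1b was 2.08 (SE 0.29) and Nlrp1a 1.88 (SE 0.17) higher, and the 6 genes passed by edgeR's quasi-likelihood test.

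The genes whose pattern was most like that of each of the 10 over the 24 libraries were taken by Pearson's r of log2 CPM among 12310 genes, as a description, since all points share the genotype and treatment groups and the cell pools. For Nlrp3 they were Epsti1 (r = 0.985), Ccl9 and Igsf6, and for Casp4 they were Ccl4 (r = 0.970), Lacc1 and Gvin1. For Gsdmd they were Tank (r = 0.943), Psmb10 and H2-Q4. For Pycard the nearest were Nxpe5 (r = 0.989), Myo1f and Arhgap45, for Nlrp1b Otulinl (r = 0.992), Adam8 and Inpp5d, and for Aim2 Lyn (r = 0.993), Ncf1 and Ctsz. For Casp1 they were Pik3ap1 (r = 0.984), Samsn1 and Lcp2, and for Nlrc4 Blnk (r = 0.980), Ms4a6b and Anpep. Casp8 was nearest to Fth1 (r = 0.979), Fcgr4 and Cndp2, and Nek7 to Cavin2 (r = 0.951), Dusp1 and Dglucy.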

How the data were processed

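RNA libraries were made by the authors with a stranded total RNA kit, mapped with STAR2 on the GENCODE mouse reference and counted with HTSeq; the submitters' processing notes name NCBIM37, FastQC and HTSeq. The deposited values are raw counts of reads per gene name, without normalization. The annotation release, the strand setting and tool versions are not given in the sources used here. Tally lines for reads not assigned to 1 gene, 14.5% to 16.1% of a library, were left out.

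Counts were analysed with edgeR 4.0.16 in R 4.3.3. Genes were filtered with filterByExpr by condition, scaled by TMM, and fitted in one quasi-likelihood model of all 24 libraries with 8 condition means. P-values were adjusted by the Benjamini-Hochberg method over the 16258 genes tested, and a gene was called at an adjusted p under 0.1, the cut-off of the study's methods. Standard errors and 95% intervals come from the same fit. The filter, the scaling, a replicate block, the libraries fitted, single libraries left out and DESeq2 1.42.0 were varied. On simulated counts of 15971 genes for WT rmCIRP against PBS, 97% of 200 genes changed 2-fold were called, and 10.2% of the calls were false. The changed genes were drawn from those above a minimum mean level, and far fewer changed than were called in the data. These shares therefore do not carry over to low genes such as Nlrp1b or to smaller changes. The 10 genes and all lists were chosen with earlier results of these data known. The text names the 10 genes in every comparison, up to 6 further pathway genes called with a fold of at least 2, Tlr4, and the 3 genes of highest Pearson's r with each of the 10 among genes averaging at least 50 counts. Exon lengths are from GENCODE M21, and promoters from RefSeq GRCm38.p6, in which Gsdmd had no window.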

Additional observations from a re-analysis of the deposited data

Results flagged for a closer look

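The response to rmCIRP differed between the genotypes when the difference itself was tested (edgeR's quasi-likelihood test, p-values adjusted by Benjamini-Hochberg). This held for 9 of the 10 inflammasome genes and for 16 of the 27 further pathway genes tested, beside 31.4% of all genes tested. Differences are log2 fold changes in labelled TLR4-/- libraries minus those in WT libraries. Among the sensors the difference was -3.11 for Nlrp3, -0.55 for Aim2, -0.71 for Nlrc4 and 2.58 for Nlrp1b. It was 0.20 for Nek7 and 1.17 for Pycard. Among the proteases it was -1.59 for Casp1 and -1.59 for Casp4, and for the substrate Gsdmd it was -0.65. Among the further genes it was -10.23 for Il1b, -7.26 for Gbp5, -4.70 for Zbp1, -3.05 for Gbp2, -1.79 for Il18 and 1.60 for Nlrp1a. The difference for Nek7 was the least certain of these, with an adjusted p = 0.0531. The genotypes also differed with PBS alone, where Il1b was 2.08 higher and Nlrp3 2.39 higher on the log2 scale in labelled TLR4-/- libraries, so the responses start from unequal levels.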

How the results depend on the processing

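The counts of the 10 genes called in WT cells with rmCIRP against PBS were 9 to 10 over all alternatives, and 9 to 10 in the fits that left out 1 library. In WT cells with both against rmTGF-β1 they were 8 to 10, and 8 to 9 with 1 library left out. In WT cells with rmTGF-β1 the count was 2 in each fit, except 3, with Nek7, when only the libraries compared were fitted. In labelled TLR4-/- libraries with rmTGF-β1 it was 3 to 5 with 1 library left out and 4 to 6 otherwise, the calls of Casp8 and Gsdmd being the ones most often lost. It was 9 between genotypes with PBS in each fit, 8 to 9 for the genotype difference in the rmCIRP response, and 0 in each fit for rmCIRP in labelled TLR4-/- libraries, against PBS or beside rmTGF-β1, and for the interaction of the treatments in WT. For the genotype difference in the rmTGF-β1 response it was 0, except 1 (Nek7, -0.25) without the filter on low counts. Of 774 values of single genes under these alternatives 746 kept direction and side of the threshold, 14 lost the call, 4 gained it and 10 changed sign, and of 960 with 1 library left out these numbers were 886, 28, 1 and 45.

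For the genotype difference in the rmTGF-β1 response, Casp1 had -0.00187 with RLE scaling, -0.0295 without the filter and -0.00493 with a mean count of at least 10. Nlrc4 with rmTGF-β1 in labelled TLR4-/- libraries had -0.0101 without the filter, and Nek7 between genotypes with PBS had 0.00465 with a mean count of at least 10 and 0.00102 with only the libraries compared. With both libraries that stood apart left out, an alternative added after seeing the data, Nlrc4 with rmTGF-β1 in labelled TLR4-/- libraries had -0.00234, and beside rmTGF-β1 Nlrp3 had 0.00863, Aim2 -0.0541 and Nlrc4 -0.00949. With 1 library left out, labelled TLR4-/- values beside rmTGF-β1 ran from -0.073 to 0.12 for Aim2, -0.17 to 0.074 for Casp1, -0.16 to 0.074 for Casp4, -0.020 to 0.091 for Nlrc4 and -0.076 to 0.046 for Nlrp3. Those with rmCIRP against PBS ran from -0.039 to 0.017 for Aim2, -0.094 to 0.0030 for Gsdmd, -0.11 to 0.037 for Nlrc4 and -0.16 to 0.029 for Nlrp3, and that with rmTGF-β1 from -0.018 to 0.045 for Nlrc4. WT values with rmTGF-β1 ran from -0.032 to 0.035 for Casp8, -0.44 to 0.056 for Nlrc4 and -0.22 to 0.077 for Pycard. For the interaction in WT they ran from -0.073 to 0.14 for Casp1, -0.054 to 0.0054 for Casp8, -0.047 to 0.041 for Gsdmd and -0.072 to 0.16 for Nlrp3. For the genotype difference in the rmTGF-β1 response they ran from -0.11 to 0.13 for Casp1 and -0.048 to 0.45 for Nlrc4, and for the genotypes with PBS from -0.047 to 0.042 for Nek7. None of the values that changed sign had been called with all libraries. The cause of these changes was not tested.

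Counts over all genes moved more than those of the 10. For rmCIRP in labelled TLR4-/- libraries, 0 genes became 149 without the filter, 29 in a fit of the compared libraries alone and 32 with DESeq2. Beside rmTGF-β1, 437 became 1580, 0 and 924. For the genotype difference in the rmTGF-β1 response, 14 became 563, 10 and 173, and for the interaction in WT 8 became 198, 125 and 39. Replicate numbers are shared by the conditions, and same-numbered libraries deviated together with r over 0.1 in 4 of 84 pairs (mean r 0.012, highest 0.37), so the numbers were not taken to pair the libraries. Of 24 libraries 12 correlated best with their own number, a hint from the data and not from the design. A replicate block left the members called at 10, 2, 10, 0, 6, 0, 9, 9, 0 and 0 in the order of comparisons WT rmCIRP, WT rmTGF-β1, WT both, the same 3 in labelled TLR4-/- libraries with rmCIRP, rmTGF-β1 and both, genotypes with PBS, both genotype differences and the interaction, and moved the count over all genes beside rmTGF-β1 in labelled TLR4-/- libraries from 437 to 810. Low counts limit Nlrp1b, with 2 to 4 reads in WT libraries with rmCIRP, and Pycard, with 16 to 33.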

Other observations

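Some further pathway genes that were not named above, chosen here after their values were seen, also changed in WT cells with rmCIRP. P2rx7, the ATP-gated channel whose opening can trigger NLRP3, had 380, 421 and 416 normalized counts with PBS and 284, 279 and 292 with rmCIRP, all lower, a log2 fold change of -0.51. Ninj1, which ruptures the plasma membrane late in lytic death, rose from 924, 920 and 915 to 1252, 1328 and 1362, by 0.51 on the log2 scale. Cflar, an inhibitor of caspase-8, rose from 7759, 8515 and 8008 to 12673, 12204 and 13239, by 0.65. In labelled TLR4-/- libraries these 3 genes did not pass with rmCIRP by edgeR's quasi-likelihood test, where 0% of all genes tested passed.

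The ratio of sensor to adaptor mRNA, Nlrp3 over Pycard per kilobase of exon, was chosen after the values were seen. It was 4.00 ± 0.55 in WT libraries with PBS and 86.5 ± 15.8 with rmCIRP (SD, n = 3), and 62.9 ± 11.7 with both. In labelled TLR4-/- libraries the means of the 4 treatments lay between 3.74 and 5.26. The ratio of Casp4 to Casp1 mRNA, which was not planned either, had means of 0.496 to 0.688 in the WT conditions and of 0.198 to 0.248 in the labelled TLR4-/- conditions. In this ratio the genotypes stood apart in every library, with the lowest WT library at 0.424 and the highest labelled TLR4-/- library at 0.265. It restates that Casp1 differed more between genotypes than Casp4, by 2.09 against 0.62 on the log2 scale with PBS. Other pairs of genes were not compared in this way. Both ratios rest on joined exon lengths, 4057 bases for Nlrp3, 3800 for Pycard, 3710 for Casp4 and 1497 for Casp1. The lengths scale a ratio by the same factor in all libraries, so its level depends on them and its fold between conditions does not.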
